A study of Malus domestica with 9 samples.

Results

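The comparison of 24 h with 6 h of light covers 25187 of the 46558 genes in the deposited apple table. A gene was taken when its mean over the 24 h and 6 h libraries was at least 1 FPKM. FPKM is a count of fragments scaled by transcript length in kilobases and by a denominator for the size of the library. The tissue was peel of apple fruit (Malus domestica) grown in bags and then lit after the bags came off, with 3 libraries after 24 h of light and 3 after 6 h. A further 3 libraries, taken at 0 h, entered the estimate of the spread and are given as levels. According to the submitters the libraries are biological replicates, but whether each came from 1 fruit, 1 tree or a pool is not stated, and neither cultivar nor clock time is named. The p-values therefore measure the spread between libraries of a time, pooled over all 9 libraries. The samples include no fruit that stayed bagged, so length of light exposure, time since bag removal and time of day cannot be told apart.

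Bagged apples develop pale peel because light is needed for the red anthocyanin pigments to form in the outer cell layers. When the bag is removed, photoreceptors release transcription factors from the repression that acts in darkness, and genes for pigment synthesis, light harvesting and protection from excess light are switched on in the hours that follow. The red colour itself appears later, as pigment accumulates in the vacuoles. Plant genes also follow a daily clock, which sets many transcripts to certain hours. The table identifies genes by locus identifiers alone, and 0 of these identifiers occurred in the RefSeq gene table of apple that was at hand. No function or position is therefore given for any gene, and the pigment and light genes of this background cannot be picked out here.

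The libraries held 16840739 to 19495791 reads in genes at 24 h and 6 h, as worked out from the steps of the FPKM values. The values do not show whether such a unit was a single read or a read pair. Pairs of libraries within a time had r = 0.965 to 0.992 over the 25187 genes, and pairs of a 24 h and a 6 h library had r = 0.828 to 0.859. Genes are not independent of each other, so these values only describe likeness. The third 24 h library lay apart: it correlated at r = 0.965 and 0.966 with the other 24 h libraries, which correlated at r = 0.992 with each other. Its summed FPKM was 870488, against 704706 and 704052 in the other 24 h libraries and 658512 to 678451 in the 6 h libraries. The reads in genes were 1.21 times the denominator of the authors' FPKM in this library, against 1.021 and 1.026 times in the other 24 h libraries and 0.961 to 0.985 times in the 6 h libraries. Results are therefore given with and without it.

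**Figure D1:**
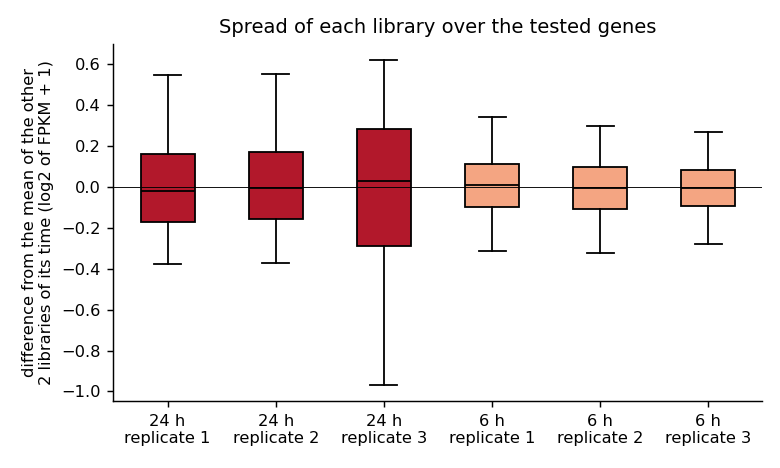
Difference of each 24 h and 6 h library from the mean of the other libraries of its time, over the 25187 tested genes, on the log2(FPKM + 1) scale. Boxes span the quartiles with a line at the median, and whiskers the 5th to 95th percentile. The box of the third 24 h library runs from -0.29 to 0.29, wider than those of the other libraries.

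Between 6 h and 24 h about as many genes rose as fell. A change was called in 4258 of the tested genes (16.9%): 2219 were higher at 24 h (8.81% of all tested) and 2039 were lower (8.1%), by limma with a Benjamini-Hochberg adjusted p under 0.05 and an absolute difference of at least 1 on the log2(FPKM + 1) scale. The median difference was 1.57 in the genes that rose, -1.47 in those that fell and -0.0038 over all 25187 genes. In bulk peel, fewer cells of a type and less RNA per cell cannot be told apart. In 2214 of the genes that rose, every 24 h library lay above every 6 h library, and in 2034 of those that fell every 24 h library lay below. Over all tested genes such separation was frequent as well, with 7813 genes (31%) above and 7231 (28.7%) below. By adjusted p alone, 6663 genes (26.5%) were higher and 6051 (24%) lower, so that 8456 genes passed it with a difference of less than 1 and 12473 did not pass it. For 17431 genes (69.2%) the 95% interval of the difference lay entirely between -1 and 1. When the third 24 h library was left out, 2179 genes (8.65%) were higher and 1849 (7.34%) lower. Whether rises or falls were more numerous depended on the scale: dividing each library by its summed reads removed these unequal ratios, shifted the median of all genes to -0.13 and gave 1896 higher and 2428 lower genes. With limma-voom on the recovered reads 2665 were higher and 2717 lower, and with a pseudocount of 0.1 the counts were 2621 and 2640.

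**Figure D2:**
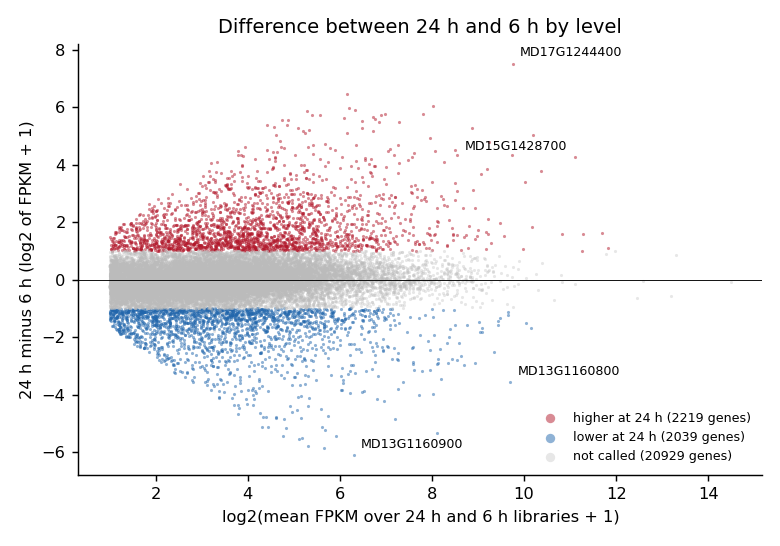
Difference between 24 h and 6 h (log2 of FPKM + 1) against the mean level of each tested gene (log2 of mean FPKM + 1). Red points are the 2219 genes called higher at 24 h, blue points the 2039 called lower and grey points the genes not called, and the 4 genes named in the text are labelled.

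MD17G1244400 had the largest rise on the log2 scale. It stood at 1803, 1842 and 1500 FPKM in the 24 h libraries, against 9.94, 7.78 and 7.52 FPKM in the 6 h libraries. The groups lay far apart, and the third 24 h library was the lowest of its group. Mean levels of 1715 ± 187 FPKM in 24 h peel and 8.42 ± 1.33 FPKM in 6 h peel (SD, n = 3 each) gave a 204-fold ratio that rested on 77951 reads at 24 h and 404 reads at 6 h. The log2 difference was 7.51 (SE 0.119, limma adjusted p = 2.85e-10), and 7.61 without the third 24 h library. At 0 h the gene had 19.7, 19.3 and 21.6 FPKM, so the 6 h libraries were the lowest of all 9.

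MD15G1428700 showed the largest rise in FPKM itself among called genes with no overlap of libraries. It had 3507, 3376 and 5633 FPKM in the 24 h libraries, against 257.7, 177.2 and 207.5 FPKM in the 6 h libraries. Here the third 24 h library was the highest of its group, and the groups did not overlap. The gene gained 3958 FPKM, with means of 4172 ± 1267 FPKM in 24 h peel and 214.1 ± 40.7 FPKM in 6 h peel (SD, n = 3 each). On the log2 scale it rose by 4.25 (SE 0.228, limma adjusted p = 1.77e-07), or by 4.02 without the third 24 h library. The 0 h libraries, at 454.02, 547.9 and 533.7 FPKM, again lay above the 6 h libraries.

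MD13G1160900 fell most on the log2 scale. The 24 h libraries held 0.370, 1.30 and 2.45 FPKM, against 186.7, 156.0 and 119.7 FPKM in the 6 h libraries. Little of the transcript was found at 24 h, with 33 reads over the 24 h libraries against 3957 over the 6 h libraries. It averaged 1.37 ± 1.04 FPKM in 24 h peel and 154.1 ± 33.6 FPKM in 6 h peel (SD, n = 3 each), and the log2 difference was -6.11 (SE 0.287, limma adjusted p = 7.28e-08). At 0 h the gene had 0.919, 0.657 and 0.636 FPKM, levels within the range of the 24 h libraries.

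MD13G1160800 showed the largest fall in FPKM among called genes with libraries that did not overlap. It had 81.2, 108.1 and 233.03 FPKM in the 24 h libraries, against 1523, 1417 and 1631 FPKM in the 6 h libraries. The third 24 h library kept more than the other 24 h libraries and was still far below every 6 h library. The means were 140.8 ± 81.03 FPKM in 24 h peel and 1524 ± 107.4 FPKM in 6 h peel (SD, n = 3 each), so that the level fell by 1383 FPKM. The log2 difference was -3.57 (SE 0.344, limma adjusted p = 1.26e-05), and -4.01 without the third 24 h library. Its 0 h libraries stood at 67.9, 38.9 and 67.8 FPKM, lower than any 24 h library.

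**Figure D3:**
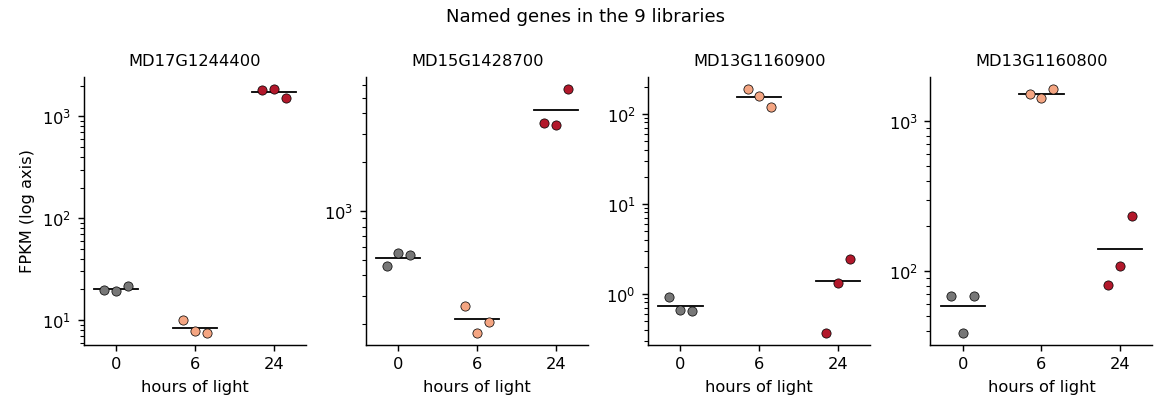
FPKM of the 4 named genes in all 9 libraries (log axis, with its own range in each panel) at 0, 6 and 24 hours of light. Points are libraries in replicate order and lines are means of 3. MD17G1244400 and MD15G1428700 are lowest at 6 h and highest at 24 h, while MD13G1160900 and MD13G1160800 are highest at 6 h.

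Large changes were found in both directions, in a small part of the 25187 tested genes. At least 4-fold differences on the log2(FPKM + 1) scale were seen in 688 genes that rose and 520 that fell, and at least 16-fold differences in 85 and 45. In the fit without the third 24 h library these counts were 685, 510, 79 and 49. The size of the changes in low genes depends on the pseudocount: with 0.1 in place of 1, differences of at least 16-fold were found in 166 genes that rose and 179 that fell, and with 5 in 31 and 5.

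The levels at 0 h differed between the genes that rose most and those that fell most. Genes that rose by at least 16-fold had a median of 4.09 FPKM at 0 h, 3.01 FPKM at 6 h and 113.0 FPKM at 24 h, so their level at 6 h was still near or below that before light. In single libraries their median was 106.8 to 113.2 FPKM at 24 h and 2.75 to 3.07 FPKM at 6 h. Genes that fell by at least 16-fold had a median of 0.737 FPKM at 0 h, 56.7 FPKM at 6 h and 0.709 FPKM at 24 h, a peak at 6 h with similar levels on either side. In single libraries their median was 0.713 to 0.967 FPKM at 24 h and 49.9 to 68.6 FPKM at 6 h.

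In the classes with smaller changes, genes that rose were again highest at 24 h and genes that fell highest at 6 h, less sharply. Genes that rose by 4-fold to 16-fold had a median FPKM of 5.39 at 0 h, with 5.13 at 6 h and 38.6 at 24 h, and those that rose by 2-fold to 4-fold had 7.47, 6.67 and 19.7 FPKM. Genes that fell by 4-fold to 16-fold had a median FPKM of 3.07 at 0 h, with 20.6 at 6 h and 2.52 at 24 h. In the 1519 genes that fell by 2-fold to 4-fold the medians were 6.45, 12.5 and 4.53 FPKM, so the 24 h level of this class lay below its 0 h level. Over all genes that rose, the median log2 difference from 0 h was -0.11 at 6 h and 1.60 at 24 h. Over all genes that fell it was 1.23 at 6 h and -0.33 at 24 h. By class of fall, the median at 24 h was 0.16 for at least 16-fold, -0.22 for 4-fold to 16-fold and -0.38 for 2-fold to 4-fold. These differences share the 0 h libraries with each other and the 24 h and 6 h libraries with the comparison that chose the genes, so they are descriptions without a test.

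**Figure D4:**
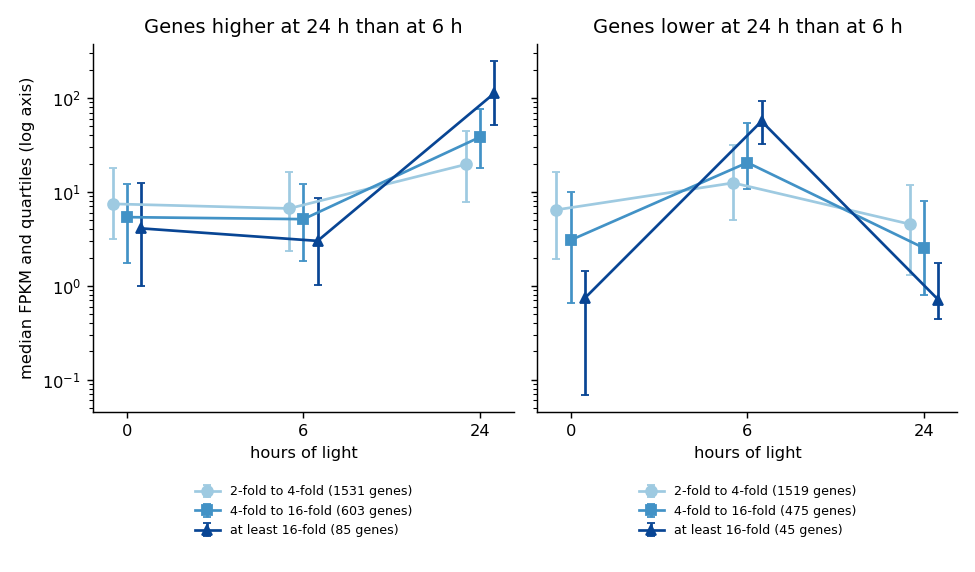
Median FPKM (log axis) at 0, 6 and 24 hours of light for genes higher (left) and lower (right) at 24 h than at 6 h, by size of the difference on the log2(FPKM + 1) scale. Bars span the quartiles over genes. The 45 genes that fell by at least 16-fold have medians of 0.737, 56.7 and 0.709 FPKM, and the 85 that rose by at least 16-fold have 4.09, 3.01 and 113.0 FPKM.

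Very few of the 25187 tested genes passed between near silence and clear expression. In 21 genes the mean was at least 10 FPKM at 24 h and under 0.5 FPKM at 6 h, with medians of 25.5 FPKM at 24 h and 0.301 FPKM at 6 h. At 0 h these genes had a median of 0.195 FPKM. In the opposite direction, 33 genes had a mean under 0.5 FPKM at 24 h and of at least 10 FPKM at 6 h, with medians of 0.278 FPKM at 24 h and 18.5 FPKM at 6 h, and they had 0.186 FPKM at 0 h. Leaving out the third 24 h library gave sets of 22 and 29 genes.

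Rises were more frequent among genes with a high mean over the 24 h and 6 h libraries. This mean holds the values that were compared, so a large change could itself place a gene in a higher class. MD17G1244400, with means of 8.42 FPKM at 6 h and 1715 FPKM at 24 h, counted among the genes of at least 100 FPKM. Classes by the level at 6 h alone were not made. Of the 1169 genes that reached a mean of 100 FPKM over the 24 h and 6 h libraries, 17.2% rose and 9.58% fell. Between 20 and 100 FPKM 13.4% of 5670 genes rose and 8.64% fell, and between 5 and 20 FPKM 7.94% of 10393 genes rose and 7.51% fell. Among the 7955 genes under 5 FPKM the order turned, with 5.48% that rose and 8.25% that fell. The pseudocount holds back calls of low genes, so these low shares are partly set by the scale: with 0.1, 8.84% of the genes under 5 FPKM rose and 14.4% fell, while the shares at 100 FPKM and above were 17.3% and 9.58%. Without the third 24 h library 15.9% of the genes at 100 FPKM and above rose and 10.2% fell, and the median difference of this class was -0.06 in place of 0.11. After quantile normalization the shares were 15.1% and 11.7% at 100 FPKM and above, and 7.06% and 7.14% under 5 FPKM. Division by summed reads gave 6.78% and 8.92% between 5 and 20 FPKM, so that falls were then more frequent in that class too.

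The genes that rose came to hold a much larger part of expression. Their part of the summed FPKM was 22.6% ± 0.480 in 24 h peel and 6.36% ± 0.0560 in 6 h peel (SD, n = 3 each), with 8.33% ± 0.0193 at 0 h (SD, n = 3). The genes that fell held 3.40% ± 0.368 in 24 h peel and 13.8% ± 0.668 in 6 h peel (SD, n = 3 each), with 5.57% ± 0.109 at 0 h (SD, n = 3). These shares follow from how the genes were chosen and were not tested. In summed FPKM, 103 of the 2219 genes that rose made up 50% of their summed gain, and 114 of the 2039 that fell made up 50% of their summed loss. Genes of high level weigh most in such sums. A like count over all tested genes was not made, so these counts are not particular to the change. The 10 highest genes of each library, whichever they were, took 10.2% ± 1.45 of the summed FPKM in 24 h peel and 9.88% ± 0.776 in 6 h peel (SD, n = 3 each), and this difference was within the spread (two-sided exact permutation test, p = 0.8, where 3 against 3 libraries cannot go below 0.1). It was 0.309 percentage points higher at 24 h with all libraries and -0.530 without the third 24 h library.

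Calls were fewest among the longest genes, and falls were most frequent among the shortest. Of the 1467 genes under 500 bases, 8.79% rose and 12.3% fell, and of the 4722 genes between 500 and 1000 bases 9.70% rose and 10.7% fell. Rises were most frequent between 1000 and 1500 bases, where 10.8% of genes rose and 7.76% fell. Between 1500 and 2500 bases 8.62% rose and 7.71% fell, and of the 4640 genes of at least 2500 bases 5.75% rose and 5.19% fell. Gene lengths were those implied by the FPKM steps. The median difference was -0.13 in the shortest class and 0.01 in the longest. With the third 24 h library left out these medians were -0.06 and 0.03, and 11.04% of the shortest class fell. The part of length in the counts was not tested.

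Genes with consecutive identifiers often changed together. In 15749 pairs of neighbouring table rows both genes were tested and their identifiers had the same prefix. A gene that fell was followed by another that fell in 301 of 1255 pairs (24.0%), whereas 7.99% of all following genes fell. A gene that rose was followed by another that rose in 225 of 1424 pairs (15.8%), against 9.05% of all following genes. A change in the opposite direction followed in 6.69% of pairs after a fall and in 6.25% after a rise. Without the third 24 h library the shares were 21.6% against 7.25% for falls and 16.03% against 8.94% for rises. Falls formed 48 runs of at least 3 consecutive rows with 166 genes, and rises formed 20 such runs with 63 genes. There were 38 and 22 such runs when the third 24 h library was left out. A pseudocount of 5 gave 16 and 4 runs, and a minimum mean of 5 FPKM, which leaves fewer genes to call, gave 22 and 6. Whether neighbouring genes are near-identical copies that shared reads in the authors' counting is not given in the sources used here, so single values within runs are uncertain.

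The longest run held 8 genes, all of which fell, and it was singled out after the values were seen. MD13G1160800 and MD13G1160900 stand at places 4 and 5 in it. Summed over the run, the 24 h libraries had 486.0, 553.3 and 1391 FPKM, against 4798, 4055 and 4305 FPKM in the 6 h libraries. At 0 h the sums were 227.4, 155.0 and 293.3 FPKM, so the 6 h libraries stood above all others and the third 24 h library lay between its group and the 6 h libraries. The log2 differences of the 8 genes ran from -6.11 to -1.32, and all 8 were also called without the third 24 h library. The gene at place 6, with 6 reads over the 24 h libraries and 50 over the 6 h libraries, was called in 18 of 20 fits. The fit with a minimum mean of 5 FPKM did not test this gene. With that minimum or with a pseudocount of 5, the longest run of falls held 5 genes. The third 24 h library was above both other 24 h libraries in 7 of the 8 genes. The 6 h means ranged from 2.17 to 1679 FPKM within the run, so its members differed widely in level, and each gene had a higher mean at 24 h than at 0 h. The genes next to the run were different: the one before it had means of 8.59 FPKM at 24 h and 8.86 FPKM at 6 h, and the one after it had 0.0884 and 0.0853 FPKM at these times, below the limit for testing.

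**Figure D5:**
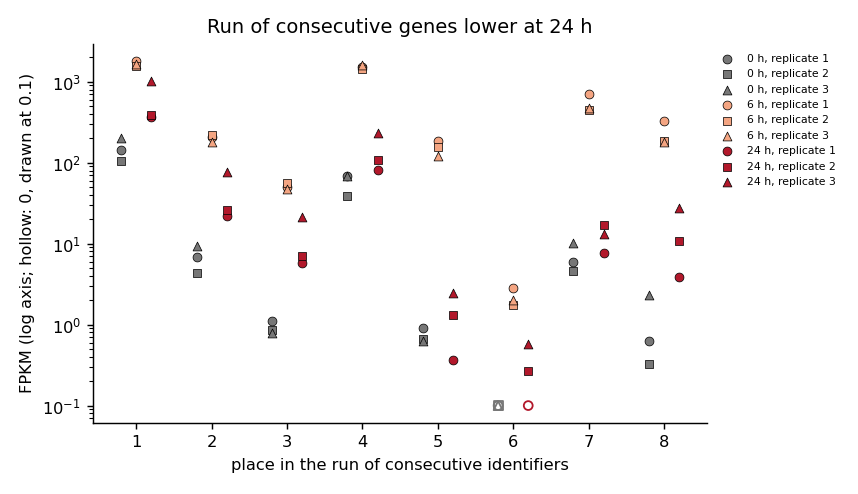
FPKM (log axis) of the 8 consecutive genes of the longest run in all 9 libraries, by place in the run, with grey for 0 h, orange for 6 h and red for 24 h and a symbol for each replicate number. Hollow symbols stand for 0 FPKM. In all 8 genes every 6 h library lies above every 24 h library, and the third 24 h library, drawn as a red triangle, is the highest 24 h library in 7 of them.

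In most genes called without it, the third 24 h library lay on the same side of the 6 h libraries as the other 24 h libraries. Of the 2179 genes called higher without it, it lay above every 6 h library in 98.2%. Of the 1849 genes called lower without it, it lay below every 6 h library in all but 19 genes, or 98.97%. These calls rest on the same 6 h libraries and were chosen for a large difference, so the shares are descriptions. They do not cover the genes that were not called. Among the genes called lower, it fell short of both other 24 h libraries in 749, lay between them in 383 and went beyond both in 698. Among those called higher, it fell short in 812, lay between in 193, went beyond in 1135 and did not pass the 6 h libraries in 39. Over all tested genes it was more than 1 log2 unit below the mean of the other 24 h libraries in 1153 genes and more than 1 above in 132. With and without the library, 2044 genes were called higher in both fits and 1740 lower in both, while 175 and 299 were called only with it and 135 and 109 only without it.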

How the data were processed

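The authors deposited FPKM per gene and library, made with HISAT2 and Cufflinks per the submitters' processing notes, which give no versions. On the build, annotation, filters and strandedness, nothing is given in the sources used here. Whole reads and gene lengths were worked out from the steps of the deposited FPKM, for 37142 genes above 0. They rebuilt the values to within a relative difference of 6.89e-08. The shortest length that gave whole reads was taken, so close rebuilding was required by the rule and is no test of the lengths. All 9 libraries had between 15331227 and 19495791 such reads, which were 0.911 to 0.941 of the denominators in the authors' FPKM at 0 h, 0.961 to 0.985 at 6 h and 1.02 to 1.21 at 24 h.

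FPKM are not counts, so log2(FPKM + 1) was fitted with limma 3.58.1 in R 4.3.3, with a mean per time over all 9 libraries (6 residual degrees of freedom) and an intensity trend. With the pseudocount of 1, differences of low genes come out smaller than in the FPKM. Tested genes had a mean of at least 1 FPKM over the 24 h and 6 h libraries. A call needed a Benjamini-Hochberg adjusted p under 0.05 and an absolute difference of 1 or more. Scripts were tested on simulated data, where 48 of 50 3-fold rises and 39 of 47 3-fold falls were called. All 8-fold changes and none of the 24802 unchanged genes were called. The simulated libraries shared the same spread and none lay apart, unlike the third 24 h library here. The members and lists were chosen with earlier results of these data known. Lists of gene functions were not run, since 0 identifiers matched RefSeq (51804 genes). With identifiers unmatched, the rule named 2 genes that rose and 2 that fell, the largest by log2 difference and by FPKM difference, among called genes with non-overlapping libraries and a higher mean of at least 10 FPKM. Alternatives changed the pseudocount, filter, scale, variance model, weights, block and libraries.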

Additional observations from a re-analysis of the deposited data

How the results depend on the processing

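No gene called under any of the 19 alternatives was called in the opposite direction to the reported one. The alternatives reuse the same libraries and most keep the size limit, so a reversed call could hardly arise. The 4 named genes kept their call and direction under all alternatives. They were chosen from these data for their large differences, so this says little about other genes. A pseudocount of 5 left 2398 genes called, 1397 higher and 1001 lower, and adjusted p alone called 12714, 6663 higher and 6051 lower, in place of 4258, 2219 and 2039. When single libraries were left out in turn, 4028 to 4570 genes were called, 2179 to 2295 higher and 1849 to 2276 lower, and the share of the 10 highest genes (24 h minus 6 h) lay between -0.530 and 0.732 percentage points. No pairing of libraries by replicate number is stated. Deviations of same-numbered libraries correlated at -0.0635 to 0.0405, and those of differently numbered libraries at -0.0603 to 0.0679. Such values cannot show whether libraries were paired by fruit, tree or batch. A replicate block called 4260 genes. The main fit pooled the spread over times, although the median SD over genes, as log2(FPKM + 1), was 0.191 at 24 h and 0.0980 at 6 h. With only the 6 libraries of these times, 4218 genes were called. The limma adjusted p of each named gene was then higher, from 2.62e-07 for MD17G1244400 to 0.000157 for MD13G1160800. Limma-voom on the recovered reads found differences of at least 16-fold in 191 genes that rose and 213 that fell. The cause of these shifts was not tested, except that a larger pseudocount and a missing size limit act by construction. Near silence, depth limits the values: the 33 reads of MD13G1160900 at 24 h are few.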
